A study of Mus musculus with 3 samples.

Results

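The Sertoli cells described here came from a library of adult mouse testis cells from which germ cells had been depleted. A cell was taken as a member when the UMIs (unique molecules) of *Cst9*, *Cst12*, *Rhox8*, *Aard* and *Defb36* together reached at least 30 per 10,000 of its UMIs and at least 3 of these 5 genes were detected. Of the 6234 cells kept, 735 met this rule, which was 11.8% (95% exact binomial interval 11 to 13), and the 5499 others were the cells they were set against. Across the 3 count files of the series there were 27555 barcodes.

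The library was made from C57BL/6 mice aged 8 weeks that carried *Ddx4-creER* and the reporter *R26tdTomato*. After tamoxifen, the germ line expresses Tomato in these mice, and Tomato+ cells were sorted out, so that every cell of the library came from treated reporter mice. The other 2 libraries, from mice aged 6 weeks, were *Scf* fl/fl testes (control) and *Amh-cre; Scf* fl/fl testes (cKO), both depleted of haploid cells. *Amh-cre* is active in Sertoli cells, where it removes *Scf*, the gene listed in the files as *Kitl*. Each library pooled animals, so that 1 library stood for each condition. No test between conditions, SD between animals or p-value could be given, and all intervals below cover counting error only.

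Sertoli cells are the somatic cells of the seminiferous tubule. They surround the germ cells, close the tubule off with tight junctions, respond to FSH and androgen, secrete fluid and carrier proteins, supply lactate, and take up the residual cytoplasm that spermatids shed. Several of the growth factors that germ cells depend on are made by somatic cells of the testis, and a Sertoli cell divides rarely or not at all in the adult.

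The 5 selecting genes chose the cells, so their levels are a description. *Cst9* and *Cst12* encode cystatins, *Defb36* encodes a beta-defensin, *Rhox8* a homeodomain protein of the X-linked Rhox cluster and *Aard* a small alanine- and arginine-rich protein. All 5 genes were detected in 684 of the 735 cells, 4 in 42 and 3 in 9. Near the limit, 63 members had 30 to under 60 UMIs per 10,000 and 50 non-members with at least 3 of the genes had 15 to under 30. The members closest to the limit had 30.6, 30.6 and 32.0 and the closest cells outside it 29.2, 29.1 and 28.9 per 10,000. The values on either side of the limit were therefore close, and the rule cut through a thin tail rather than an empty gap.

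**Figure D1:**
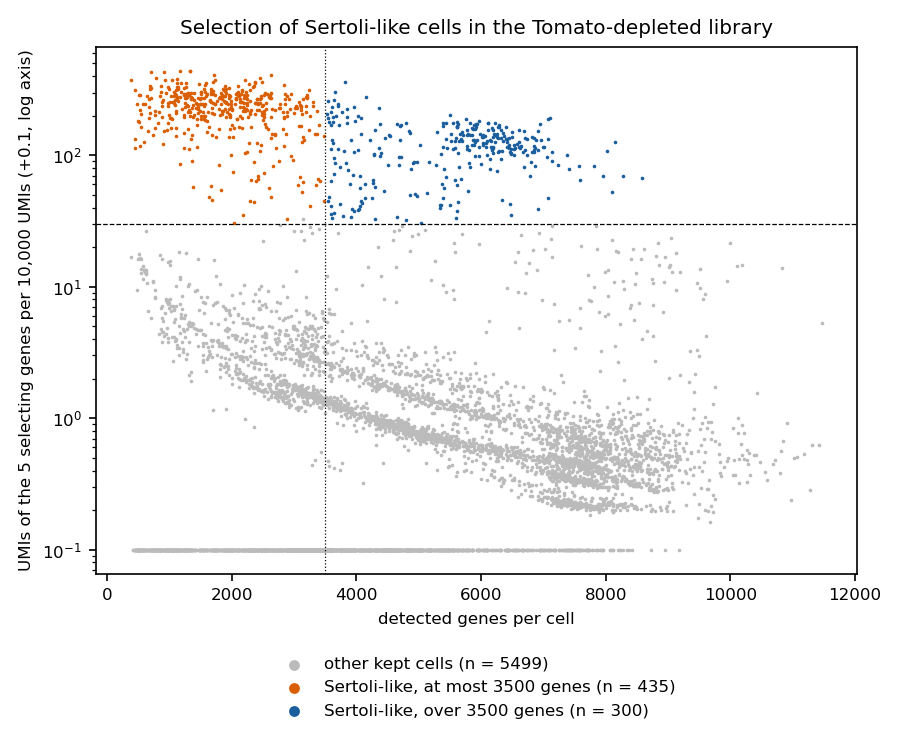
Each point is 1 of the 6234 kept cells of the Tomato-depleted library; the x axis gives its detected genes and the y axis, on a log scale, the UMIs of the 5 selecting genes per 10,000 with 0.1 added. The dashed line at 30 divides the 735 Sertoli-like cells from the others, and the dotted line at 3500 genes divides them into 435 low-depth and 300 high-depth cells.

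Because 3 of the selecting genes lie in 2 gene clusters on chromosome 2, the stretches of 250 bases upstream of their starts are shown, with that of *Amhr2*, a receptor gene of the same cells. They are given 5′ to 3′ on the gene's own strand from RefSeq, build GRCm38.p6. *Cst9* covers chr2:148834897-148835146, *Cst12* chr2:148789115-148789364, *Defb36* chr2:152604077-152604326 and *Amhr2* chr15:102445117-102445366, all on the plus strand. Capitals mark CAAGGTC or its reverse complement, a motif bound by nuclear receptors of the NR5A type.
Cst9: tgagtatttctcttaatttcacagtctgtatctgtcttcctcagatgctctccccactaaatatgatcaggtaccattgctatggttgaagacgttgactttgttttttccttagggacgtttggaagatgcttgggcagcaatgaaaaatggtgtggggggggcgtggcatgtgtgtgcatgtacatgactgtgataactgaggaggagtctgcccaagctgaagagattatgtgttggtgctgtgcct
Cst12: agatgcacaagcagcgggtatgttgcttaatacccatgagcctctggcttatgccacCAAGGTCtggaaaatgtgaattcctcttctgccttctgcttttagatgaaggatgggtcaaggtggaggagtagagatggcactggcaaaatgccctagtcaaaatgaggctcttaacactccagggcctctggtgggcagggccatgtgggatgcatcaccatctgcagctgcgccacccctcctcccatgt
Defb36: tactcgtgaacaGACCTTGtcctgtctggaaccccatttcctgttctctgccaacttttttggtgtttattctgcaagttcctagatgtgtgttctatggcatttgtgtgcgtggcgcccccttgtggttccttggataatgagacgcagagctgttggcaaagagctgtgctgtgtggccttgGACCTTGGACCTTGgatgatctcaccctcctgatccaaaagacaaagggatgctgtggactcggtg
Amhr2: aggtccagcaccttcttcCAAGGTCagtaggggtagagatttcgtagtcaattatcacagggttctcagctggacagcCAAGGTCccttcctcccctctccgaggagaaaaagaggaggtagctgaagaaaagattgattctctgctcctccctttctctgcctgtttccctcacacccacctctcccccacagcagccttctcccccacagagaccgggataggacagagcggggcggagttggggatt

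The motif occurred 3 times upstream of *Defb36*, at 238, 66 and 59 bases before the start and each time on the minus strand. Upstream of *Amhr2* it occurred 2 times, at 232 and 172 bases. *Cst12* held it once, 193 bases before its start, and *Cst9* did not hold these letters in this window. The motif was chosen after the sequences had been read. On either strand it stood in 3.32% of all 32851 promoters of the table, in 3.04% of the 14969 promoters of genes compared below with other somatic cells, and in 66 of the 1507 promoters (4.38%) of genes at least 4-fold higher in the Sertoli-like cells. The GATA motif GATAA stood in 22.6%, 15.4% and 17.4% of the same 3 sets, the SOX motif ACAATG in 10.7%, 7.33% and 11.3%, and the E box CACGTG in 6.02%, 8.01% and 6.44%. These shares describe letters in a window and not binding. Promoters were found for 12 of 21 genes looked up, and *Rhox8* and *Aard* were not among them.

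Sox9 and Wt1, transcription factors that define the Sertoli lineage and were not part of the rule, marked the selected cells. A *Sox9* UMI was seen in 51.7% of them and a *Wt1* UMI in 55.4%. In the cells of germ line type, which should lack both, the shares were 3.45% and 5.18% although their median depth was 47966.5 UMIs against 7409. In stromal-like cells the shares were 19.0% and 14.7%. *Sox9* thus bore out the label more clearly than *Wt1*, whose level was close to that of endothelial-like cells, and the cells are called Sertoli-like because their name rests on counts. Other classes were assigned by the same kind of rule, with at least 30 marker UMIs per 10,000 and 3 markers detected. They were 462 contractile-like cells (myoid and vascular smooth muscle), 137 immune-like, 116 stromal-like, 38 endothelial-like, 29 Leydig-like and 3130 germ-like cells. A further 1580 cells met no rule and 7 met several.

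Sertoli-like cells fell into a shallow and a deep set. The 435 low-depth cells, with at most 3500 detected genes, had a median of 4124 UMIs, 1881 genes and 6.82% mitochondrial UMIs. The 300 high-depth cells had a median of 19307.5 UMIs, 5734.5 genes and 4.25% mitochondrial UMIs. The limit of 3500 is the upper gene limit that the study applied, so the high-depth set held cells that such a limit removes. The smallest Sertoli-like cell had 600 UMIs and the largest 46164.

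Mitochondrial filtering removed most cells that met the count rule. Of the 1392 cells of this library with over 10% mitochondrial UMIs, 1121 (80.5%) met it, more than the 735 that were kept. These 1121 cells had a median of 3556 UMIs and 16.5% mitochondrial UMIs. In the control library 4 of 6124 kept cells and 0 of 140 removed cells met the rule, and in the cKO library 13 of 7038 kept and 17 of 214 removed cells did. So few Sertoli-like cells in those libraries allowed no description across genes. The library shared 9 cell barcodes with the control library and 13 with the cKO library, and control and cKO shared 15.

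Transcription factors of the Sertoli lineage set the selected cells apart from the other kept cells. Of 13 such genes, 11 were at least 4-fold higher in Sertoli-like cells than in the others, 1 was at least 4-fold lower and 1 lay between, with a median ratio of 80.1. Over all 25899 genes with at least 20 counts, 14.3% were at least 4-fold higher and 20.7% at least 4-fold lower, with a median ratio of 0.788. *Sox9* stood at 372 CPM (UMIs of the gene scaled to the summed UMIs of the group) in Sertoli-like cells and 1.98 in the others, a ratio of 188 (168 to 210). *Wt1* stood at 319 and 3.72 CPM, a ratio of 85.7 (78.7 to 93.5). *Nr0b1*, an orphan nuclear receptor, had the highest ratio of the list, at 213 (184 to 250).

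Within the list the genes differed in how far they separated Sertoli-like cells from other somatic classes. *Sox9* was 5.60-fold above its next class, the stromal-like cells. *Wt1* was only 1.08 times its level in the 38 endothelial-like cells, and *Nr5a1*, which drives steroid synthesis genes, was 1.08 times its level in the 29 Leydig-like cells. *Gata1*, a factor also of blood cells, was 37.5-fold and *Rhox5*, a homeobox gene of the X chromosome, 104-fold above the next class. *Dmrt1*, a factor of both Sertoli and germ cells, was 1.71-fold higher, and the gene that was lower, *Emx2*, had 10 counts.

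**Figure D2:**
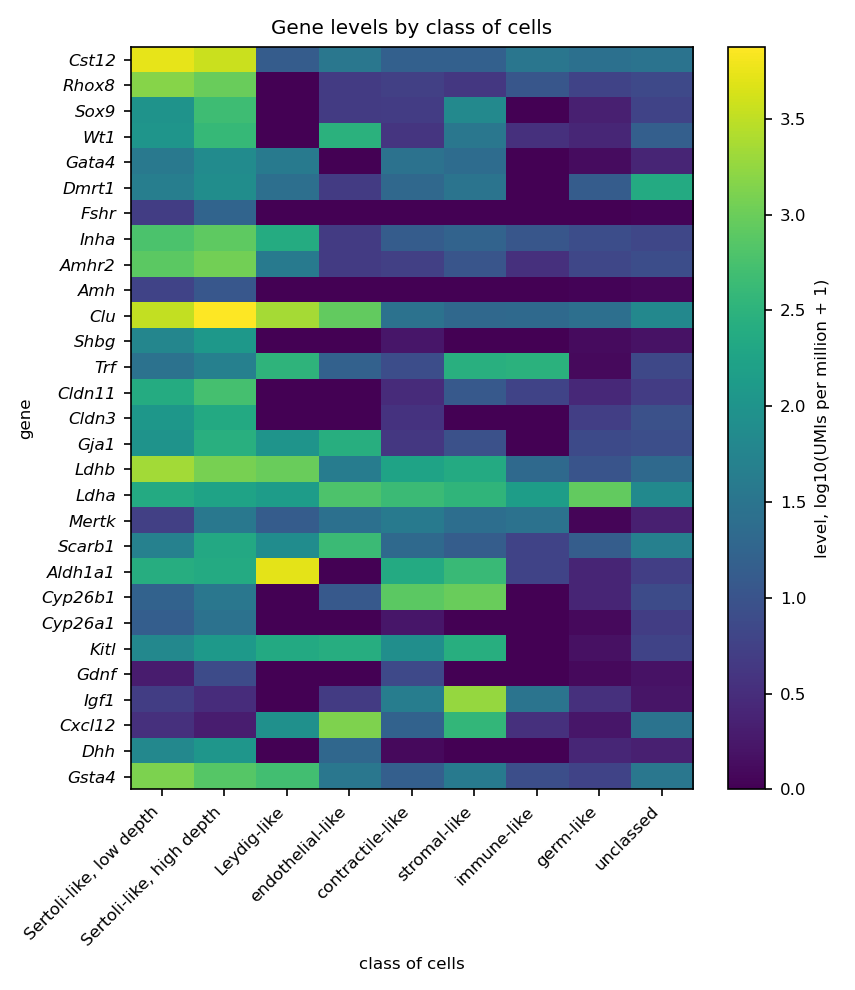
Colour gives the level of 29 genes, as log10 of CPM plus 1, with genes in rows and 9 classes of cells in columns. *Fshr*, *Amh*, *Shbg* and *Cldn11* were brightest in the Sertoli-like columns, whereas *Kitl*, *Trf* and *Aldh1a1* were also bright in other somatic columns.

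Genes of the FSH, androgen and inhibin axis were high in the same cells. Of 16 genes, 12 were at least 4-fold higher than in the other cells and 2 at least 4-fold lower. Over all genes compared, 14.3% were higher and 20.7% lower. Against other somatic cells alone, 10 of 15 were higher and 2 lower, where 11.1% of all genes were higher and 13.1% lower. *Fshr*, the FSH receptor, gave 102 counts in Sertoli-like cells and had a ratio of 538 (228 to 2253), although at 13.2 CPM it was a low-level gene. *Inha*, the inhibin alpha subunit, stood at 768 CPM and *Inhbb*, the beta B subunit, at 121 CPM, whereas *Inhba*, the beta A subunit, gave 0 counts, which allows up to 0.388 CPM. *Inhba* had a UMI in 0 of 435 low-depth and 0 of 300 high-depth cells, with exact upper limits of 0.844% and 1.22%. *Amhr2*, the receptor of anti-Müllerian hormone, stood at 1028 CPM and its ligand *Amh* at 8.79 CPM with 68 counts. *Tsx*, an X-linked testis gene, stood at 1061 CPM and 174-fold over the others, and *Esr1*, an estrogen receptor gene, gave 16 counts and was lower at a ratio of 0.0837.

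Secreted proteins and carriers included several abundant transcripts of these cells. Of 18 genes, 11 were at least 4-fold higher than in the other cells and 1 at least 4-fold lower. Over all genes compared, 14.3% were higher and 20.7% lower. Against other somatic cells alone, 6 of 16 were higher and 3 lower, where 11.1% of all genes were higher and 13.1% lower. The median ratio of the list was then 1.16, where that of all genes was 1.10. *Clu*, clusterin, a secreted chaperone, stood at 6389 CPM against 32.2 in the others, a ratio of 198 (193 to 204). *Ctsl*, the protease cathepsin L, stood at 4024 CPM with a ratio of 63.1. *Shbg*, the androgen-binding protein, was 300-fold higher (233 to 399) and 117-fold above the next class. Other carriers were shared with other cell types. *Trf*, transferrin, was 14.6-fold higher than in the other cells together but at 0.129 of its level in Leydig-like cells, and *Sparc*, a matrix protein, was at 0.199 of its level in endothelial-like cells.

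The RNA of the 29 Leydig-like cells also held Sertoli genes. *Clu* stood at 2242 CPM in them, and the ratio of Sertoli-like over Leydig-like cells was 2.84 for *Clu*, 1.38 for *Serpina5*, a protease inhibitor, and 1.55 for the lincRNA *Gm37350*. For *Cst9*, a selecting gene, the same ratio was 115. The class had 79851 UMIs in all, and levels in it rest on few cells.

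Barrier and adhesion genes were mostly high. Of 24 genes, 16 were at least 4-fold higher than in the other cells and 1 at least 4-fold lower. Over all genes compared, 14.3% were higher and 20.7% lower. Against other somatic cells alone, 11 of 24 were higher and 2 lower, where 11.1% of all genes were higher and 13.1% lower. *Cldn11*, the claudin of the Sertoli tight junction, stood at 467 CPM, 226-fold over the others and 38.9-fold over the next class. *Cldn3* stood at 196 CPM, *Cgn*, cingulin, at 275 CPM, and *Espn*, which bundles actin at the junctions with spermatids, at 678 CPM. *Gja1*, a gap junction protein, was 33.3-fold higher than in the other cells but at 0.868 of its level in endothelial-like cells. The gene that was lower was *Cldn5*, an endothelial claudin, with 2 counts.

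Glucose and lactate genes divided by isoform. Of 21 genes, 10 were at least 4-fold higher and 4 at least 4-fold lower than in the other cells. *Ldhb*, a lactate dehydrogenase subunit, stood at 1460 CPM and was 93.7-fold higher, whereas *Ldha*, the other subunit, stood at 193 CPM and was lower at a ratio of 0.252. *Hk2*, a hexokinase, was 31.7-fold and *Pfkl*, a phosphofructokinase subunit, 56.3-fold higher. *Slc16a1*, a lactate transporter, was 7.34-fold higher and *Slc2a3*, a glucose transporter, lower at 0.105. Against the other somatic cells alone, 1 of the 21 genes was at least 4-fold higher and 1 at least 4-fold lower, where 11.1% of 16397 genes were higher and 13.1% lower, so the contrast was largely one with germ-like and unclassed cells.

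Genes of phagocytosis and lipid handling followed the same division. Against all other cells 15 of 24 were at least 4-fold higher and 0 lower. Against other somatic cells 5 were higher, where 11.1% of all genes were, and 3 lower, near the 13.1% of all genes. *Tyro3*, *Axl* and *Mertk* encode receptors for dying cells. *Tyro3* stood at 131 CPM and 7.58-fold above its next class. *Axl* at 84.0 CPM and *Mertk* at 27.2 CPM stood at 0.793 and 0.709 of the level in immune-like and contractile-like cells. *Itgb5*, an integrin subunit, was 53.0-fold higher than in the other cells, and *Scarb1*, a lipoprotein receptor, 9.80-fold higher.

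Retinoid genes were mixed. Of 18 genes, 7 were at least 4-fold higher than in the other cells and 0 lower. Over all genes compared, 14.3% were higher and 20.7% lower. Against other somatic cells alone, 4 of 15 were higher and 3 lower, where 11.1% of all genes were higher and 13.1% lower. The median ratio of the list was then 1.21, where that of all genes was 1.10. *Stra6*, the receptor for retinol uptake, was 82.2-fold higher (61.8 to 112) and 74.3-fold above the next class. *Cyp26a1*, which degrades retinoic acid, was 32.6-fold higher, whereas *Cyp26b1*, with the same function, was at 0.0297 of its level in stromal-like cells. *Aldh1a1*, a retinal dehydrogenase, stood at 243 CPM, 22.7-fold over all other cells but at 0.0469 of its level in Leydig-like cells. *Rara*, a retinoic acid receptor, was 14.2-fold higher.

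Growth factors of the germ cell niche were rarely particular to Sertoli-like cells. Of 12 factors that the study examined, 2 were at least 4-fold higher than in all other cells, *Kitl* and *Gdnf*, and 2 were at least 4-fold lower, *Cxcl12* and *Inhba*. Against other somatic cells alone, 0 of 11 were at least 4-fold higher and 8 at least 4-fold lower, the latter against 13.1% of all genes.

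*Kitl*, stem cell factor, the ligand of the Kit receptor, gave 822 counts and stood at 106 CPM in Sertoli-like cells against 4.29 in the others, a ratio of 24.8 (22.4 to 27.4). Germ-like cells, which held most UMIs of the others, stood at 0.512 CPM. Stromal-like cells had 264 CPM of *Kitl*, endothelial-like 257, Leydig-like 225 and contractile-like 81.9, and immune-like cells had 0 counts. Sertoli-like cells thus stood below the stromal-like, endothelial-like and Leydig-like classes in *Kitl* RNA per UMI, at 0.401 of the stromal-like level, and above the contractile-like and immune-like classes. In the 4 control cells that met the rule *Kitl* gave 11 counts, or 363 CPM (181 to 650). In the 30 such cells of the cKO library, removed cells included, it gave 11 counts, or 29.3 CPM (14.6 to 52.3), and in the 13 kept cells 7 counts, or 44.9 CPM. No source used here places the counted 3′ tags relative to the deleted exons, so these counts do not check the deletion.

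*Gdnf*, a factor for spermatogonial stem cells, gave 40 counts, or 5.17 CPM, and stood at 0.832 of its level in contractile-like cells. A *Gdnf* UMI was seen in 10.0% of high-depth and 0.460% of low-depth Sertoli-like cells, and in 1.21% of germ-like cells. *Igf1*, an insulin-like growth factor, gave 20 counts, *Csf1* 15, *Cxcl12* 11, *Bmp4* 10, *Fgf2* 9 and *Nrg1* 1. *Igf1* stood at 1795 CPM in stromal-like and *Cxcl12*, a chemokine, at 1313 CPM in endothelial-like cells. Of 17 other ligands, 8 were at least 4-fold higher than in all other cells and 2 lower, beside 14.3% and 20.7% of all genes. Against other somatic cells 1 of 13 was higher and 5 lower, beside 11.1% and 13.1% of all genes. *Dhh*, the hedgehog ligand that Sertoli cells make for Leydig and myoid cells, stood at 97.0 CPM and 4.74-fold above the next class, while *Tgfb1* stood at 0.444 and *Wnt6* at 0.102 of the next class.

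Smaller lists gave fewer genes. Of 19 genes for iron, metals and redox balance, 6 were at least 4-fold higher than in the other cells and 0 lower. Against other somatic cells alone 3 were higher and 3 lower, where 11.1% of all genes were higher and 13.1% lower. The median ratio of the list was then 0.609. *Gsta4*, a glutathione transferase, stood at 863 CPM and 94.0-fold over the others, and *Fth1*, ferritin heavy chain, at 1789 CPM and 3.21-fold. Of 7 genes of immature Sertoli cells 2 were higher and 3 lower. Of 15 cell cycle genes 2 were higher and 2 lower, no more than the 14.3% and 20.7% of all genes. *Cdkn1b*, a cyclin-dependent kinase inhibitor, was 17.0-fold higher, and *Mki67*, a proliferation marker, stood at 44.0 CPM against 91.1 in the others.

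Outside the lists, the genes with the highest ratios over the other cells, ordered by the lower end of the interval, included several without a named function. *Gm37350*, a lincRNA, was 324-fold higher, and *Gm14569* and *4933402E13Rik*, both on the X chromosome, 274-fold and 269-fold. *Cidea*, a lipid droplet protein, was 277-fold, *Qpct*, a glutaminyl cyclase, 251-fold and *Serpina3a*, a serine protease inhibitor, 255-fold higher. *4933401D09Rik* (302-fold), *Gm14226* (272-fold), *Gpr55* (252-fold), a lysolipid receptor, *Dmrta1* (259-fold) and *4930401G09Rik* (389-fold) belonged to the same top 15, with *Shbg*, *Fshr*, *Cldn11* and *Clu*. Against the next class *Gpr55* was 156-fold and *4933401D09Rik* 293-fold higher. The X chromosome held 3.63% of the genes compared and 6.86% of those at least 4-fold higher, and 3.58% and 7.86% in the comparison with somatic cells.

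Ordered by the ratio over the highest other class, the leading genes were *4933401D09Rik*, *Bbox1*, *Lrrn4*, *Tbx22*, *Slc6a14*, *AC151478.2*, *Wfdc6a*, *Frmpd1os*, *Gpr55* and *Sncb*. *Bbox1*, which catalyses the last step of carnitine synthesis, was 241-fold, *Slc6a14*, an amino acid transporter, 170-fold and *Tbx22*, a T-box factor, 171-fold above the next class. *Lrrn4* (190-fold), *AC151478.2* (169-fold), *Wfdc6a* (165-fold), *Frmpd1os* (164-fold) and *Sncb*, beta-synuclein (154-fold), followed. All 10 were low to moderate in level, from 13.8 CPM for *Tbx22* to 101 CPM for *4933401D09Rik*. *Frmpd1os* is annotated antisense, and the sources used here do not say how the counting used strand.

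The 10 lowest genes were highest in germ-like or, for *Il1b*, immune-like cells. *Spdye4c* and *Gm3543* gave 0 counts, and *Il1b*, an inflammatory cytokine, 3. *4932431P20Rik* gave 90 counts at a ratio of 0.0383, *Armh2* 48, *Iqub* 56, *Spata31* 27, *Jakmip2* 10, *1700001F09Rik* 7 and *Gm5458* 7.

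Gene families on chromosome 2 held several of the most abundant genes of these cells. The families were chosen after the values had been seen. *Cst9*, *Cst12*, *Defb36* and *Rhox8* also selected the cells, so their ratios and their part in the shares below are a description. Of 5 cystatin genes between 148789361 and 148875692 (GRCm38), *Cst12*, *Cst9* and *Cst3* were at least 4-fold higher, whereas *Cst8* and *Cst13*, which lie between them, had ratios of 0.727 and 0.555. *Cst3*, the cystatin of most tissues, was 6.41-fold higher but at 0.0874 of its level in Leydig-like cells. *Cst9* and *Cst12* were 115-fold and 116-fold above the next class. The 3 higher genes made up 0.864% of the UMIs of Sertoli-like cells.

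Of 7 beta-defensin genes, *Defb19*, *Defb45* and *Defb36*, which are neighbours within 36.6 kb, were higher at ratios of 114, 125 and 136. *Defb36* was a selecting gene. *Defb20*, *Defb21*, *Defb28* and *Defb25* around them gave 8, 4, 0 and 0 counts. *Defb19*, at 8826 CPM, was the gene with most RNA of the list of secreted proteins, and the 3 genes together made up 1.13% of all UMIs. Of 13 genes of the WFDC protease inhibitor cluster, 8 were higher, from *Spint3* to *Wfdc13* over 118 kb, and 3 were lower. *Wfdc10* stood at 1263 CPM and 116-fold over the others, *Wfdc6a* at 76.4 CPM and 180-fold, and *Eppin*, a sperm-surface protease inhibitor, at 302 CPM and 17.6-fold. *Wfdc8* and *Wfdc6b* overlap in the annotation, as do *Wfdc9* and *Wfdc10*, so their split is uncertain. Of 25 Rhox genes on the X chromosome, *Rhox5* and the selecting gene *Rhox8* were higher and 5 were lower. Many Rhox genes are near-identical copies, and their low counts are uncertain for that reason.

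**Figure D3:**
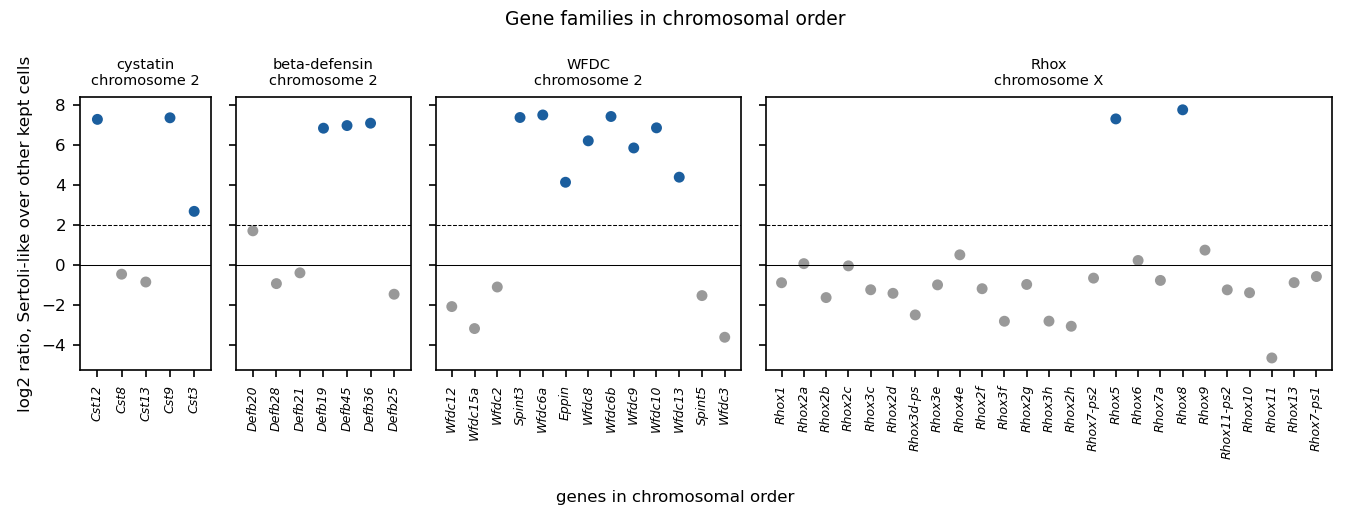
Points give the log2 ratio of Sertoli-like over other kept cells for the genes of 4 families in chromosomal order, 5 cystatins, 7 beta-defensins, 13 WFDC genes and 25 Rhox genes. Blue points pass the dashed line at 4-fold: 3, 3, 8 and 2 genes. In each family they stand beside grey genes that do not. Among the blue points, *Cst9*, *Cst12*, *Defb36* and *Rhox8* are selecting genes.

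At matched depth the comparison changed most for low-depth cells. The others of the 2 depths also differed in kind. A somatic class rule was met by 698 of the 1724 low-depth others and by 91 of the 3775 high-depth others. The ratios below therefore differ in the cells set against as well as in depth, and the part of each was not tested. Low-depth Sertoli-like cells against other cells of at most 3500 genes had 855 of 16517 genes (5.18%) at least 4-fold higher, and high-depth cells against high-depth others 4576 of 25312 (18.1%). Transcription factors were higher for 9 of 12 and 11 of 13, and barrier genes for 9 of 23 and 19 of 24. Other lists had fewer such genes at low depth. Of 24 phagocytosis and lipid genes 3 were higher and 5 lower against 17 and 0 at high depth, of 16 secreted proteins 6 were higher and 5 lower, and of 21 glucose and lactate genes 2 were higher and 0 lower. At low depth 4780 of the 16517 genes (28.9%) were at least 4-fold lower, and the counts of lower genes are read against that share. The low-depth medians of these 3 lists were 0.603, 0.882 and 1.12, where the median of all genes was 0.587. *Sox9* was 10.1-fold higher at low depth and 298-fold at high depth, and *Clu* 30.4-fold and 266-fold. *Kitl* was 1.10-fold (0.894 to 1.33) at low depth, where somatic cells made up more of the others, and 85.2-fold at high depth.

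Depth divided the Sertoli-like cells themselves. Of 13744 genes, 40.0% were at least 2-fold higher per UMI in high-depth than in low-depth cells and 7.88% at least 2-fold lower. The median ratio was 1.55, or 0.63 on the log2 scale, so each ratio below is read against 1.55. Barrier genes were higher in 16 of 22, phagocytosis and lipid genes in 13 of 21, and transcription factors in 6 of 12, with median ratios of 2.78, 2.64 and 2.03. FSH, androgen and inhibin genes were higher in 4 of 13 and lower in 1, at a median of 1.40, and glucose and lactate genes in 5 of 21 and lower in 1, at 0.810.

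Levels of single genes showed the size of the difference. *Sox9* stood at 96.9 CPM at low and 469 at high depth, a ratio of 4.83 (4.18 to 5.63), and *Wt1* at 104 and 394. *Slc16a1* stood at 17.9 and 108 CPM and *Mertk* at 4.47 and 35.1. *Clu* stood at 3262 and 7489 and *Cldn11* at 245 and 545 CPM. These genes thus took a larger part of the RNA in the deep cells, beside a median ratio of 1.55 over all genes. Not all genes of the Sertoli program did. *Kitl* stood at 62.6 and 122 CPM, a ratio of 1.94 (1.60 to 2.37), and *Inha* at 600 and 827 CPM, a ratio of 1.38 that lay below the median of all genes.

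The selecting genes and some other abundant transcripts went the other way. *Defb36* stood at 3919 CPM at low and 1212 at high depth, *Defb19* at 15039 and 6640, and *Tsx* at 1941 and 752. *Cst9* stood at 5251 and 3010 CPM and *Aard* at 5891 and 3075, but the rule used these levels. *Ldhb* at 2174 and 1209, *Gsta4* at 1295 and 711, and *Fth1* at 3027 and 1354 CPM were also lower per UMI in the deep cells. *Defb19* was the second most abundant gene of the low-depth cells after *mt-Rnr2*, at 1.50% of their UMIs. By annotated type, protein-coding genes had a median ratio of 1.57, 91 ribosomal protein genes 0.653, 15 mitochondrial genes 0.630 and 469 lincRNAs 0.774.

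**Figure D4:**
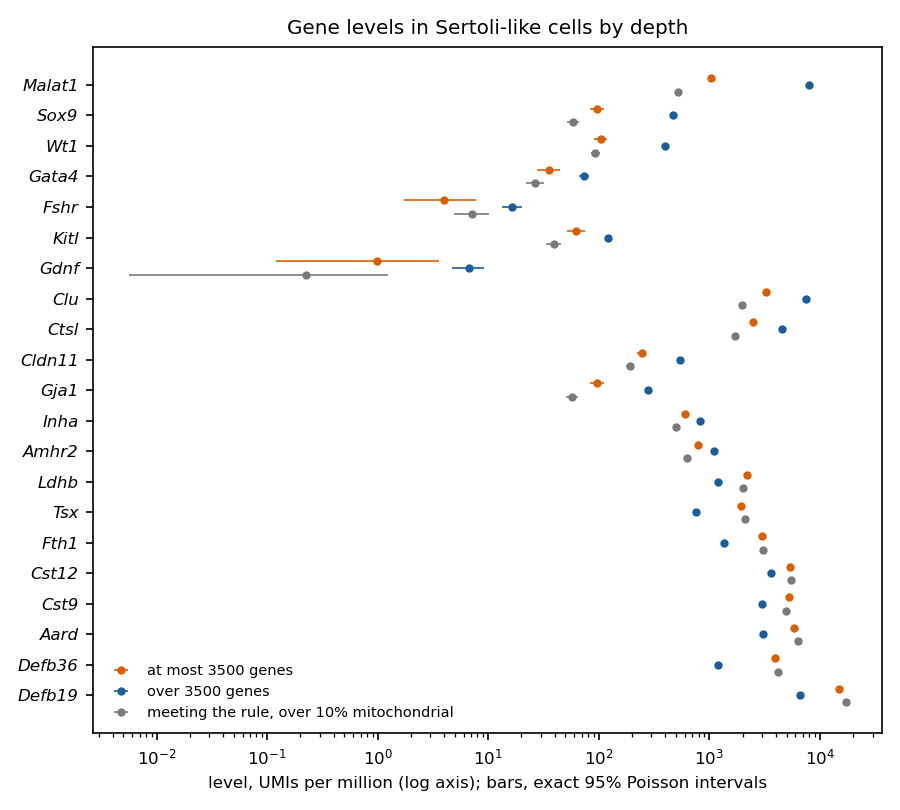
Points give the level of 21 genes in CPM on a log axis, with exact 95% Poisson intervals, for low-depth (orange) and high-depth (blue) Sertoli-like cells and for the 1121 removed cells that met the rule (grey). Grey points lay near orange points for most genes, and *Malat1* had a wide gap, at 1032 CPM in low-depth and 7972 CPM in high-depth cells. *Cst12*, *Cst9*, *Aard* and *Defb36* selected the cells of every group shown.

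Cells thinned to 2000 UMIs each showed the same order. Thinning left out 69 Sertoli-like cells, all of low depth, and compared 366 with 300. A *Sox9* UMI was then seen in 17.5% of low-depth and 47.3% of high-depth cells, and in 0.297% of germ-like cells thinned in the same way. Without thinning the shares were 31.3% and 81.3%. *Wt1* was seen in 21.6% and 46.0%, and *Kitl* in 12.3% and 21.3%. *Clu* was seen in 83.1% and 92.3%, so its difference lay in the level more than in the share of cells.

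*Malat1*, a long RNA that stays in the nucleus, divided the cells along the same line. It had 0 counts in 332 of 435 low-depth cells (76.3%, 72.0 to 80.2) and in 24 of 300 high-depth cells (8.00%). The median was 0 per 10,000 UMIs at low depth and 79.5 at high depth. Contractile-like cells had a median of 416, stromal-like of 505, endothelial-like of 277, immune-like of 180 and germ-like of 8.02 per 10,000. Other somatic classes of shallow cells therefore held *Malat1* where low-depth Sertoli-like cells mostly did not, and 19 of 29 Leydig-like cells had none. Of the 1121 removed cells, 846 (75.5%) had none. Whether these barcodes held whole cells, cytoplasm or fragments was not tested.

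**Figure D5:**
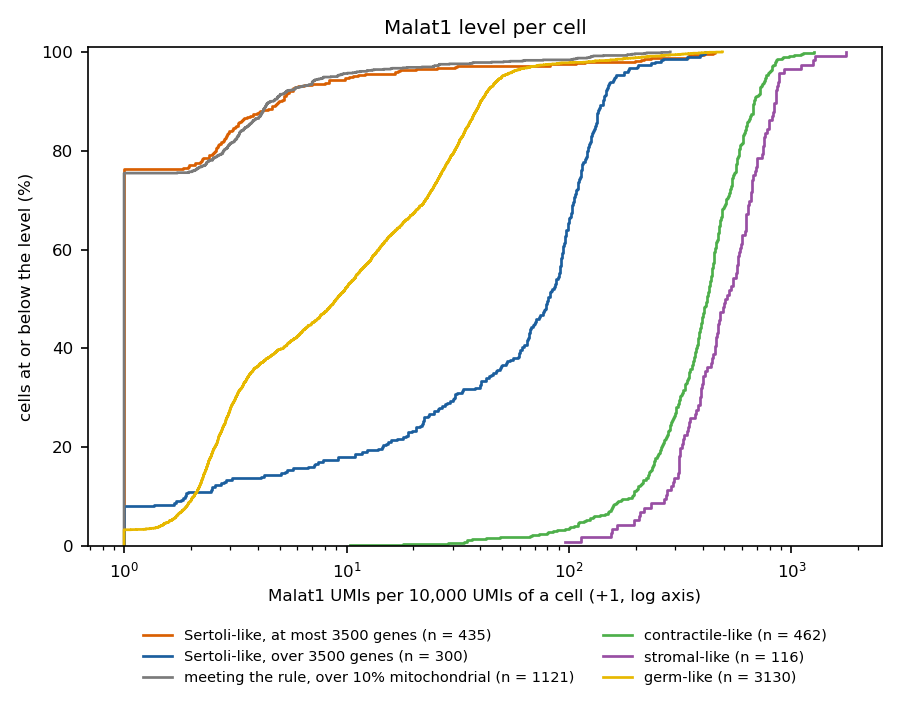
Curves give the cumulative share of cells, in percent, at or below each *Malat1* level in UMIs per 10,000 with 1 added, on a log axis, for 6 groups of cells. The curves of low-depth Sertoli-like cells and of the removed cells start at 76.3% and 75.5%, whereas that of high-depth cells starts at 8.00% and lies far to the right.

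Depth and *Malat1* could be separated in part. At high depth 244 cells had at least 10 *Malat1* UMIs per 10,000 and 56 had fewer, and at low depth 21 and 414. *Sox9* stood at 546 CPM in the high-depth cells with *Malat1* and 65.1 in those with less, and at 168 and 92.9 CPM in the low-depth cells. *Clu* stood at 8608 and 1653 CPM at high depth and 3190 and 3266 at low depth, and *Kitl* at 141 and 22.8 and at 131 and 58.8 CPM. The 56 deep cells with little *Malat1* thus lay closer to the shallow cells than to the other deep cells in *Sox9*, and below both in *Clu* and *Kitl*. *Cst9* stood at 3095 and 2563 CPM at high depth and 1581 and 5456 at low depth.

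These 4 groups differed in RNA of other cells. Of the 21 low-depth cells with *Malat1*, 7 met a somatic class rule, and their median of the selecting genes was 63.5 per 10,000 against 244 in the low-depth cells with less. Of the 56 deep cells with little *Malat1*, 21 had at least 10 UMIs per 10,000 of premeiotic and meiotic transcripts, 23 at least 100 of haploid transcripts and 14 a doublet call by Scrublet. Without cells of premeiotic signal, a somatic rule or a doublet call, 377, 12, 35 and 184 cells were left in the order low with less, low with more, high with less and high with more *Malat1*. *Sox9* then stood at 95.4, 342, 92.8 and 636 CPM and *Kitl* at 60.7, 192, 29.0 and 159 CPM. *Jun*, an immediate early gene, stood at 15.9, 470, 27.1 and 599 CPM. All 3 genes were higher with more *Malat1* at either depth, on 12 cells in the smallest group.

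Stress genes of dissociation moved with depth too. Of 14 genes, 11 were at least 2-fold higher at high depth and 0 lower, at a median ratio of 4.29. Among all genes 40.0% were higher and 7.88% lower, at a median of 1.55. *Jun* stood at 72.1 and 476 CPM and *Egr1* at 54.7 and 369, and a *Fos* UMI was seen after thinning in 6.01% of low-depth and 31.7% of high-depth cells. Against the other somatic cells, however, 0 of 14 were at least 4-fold higher in Sertoli-like cells and 10 were at least 4-fold lower. In that comparison 11.1% of all genes were higher and 13.1% lower. *Fos* stood at 3053 CPM in contractile-like cells against 393 in high-depth Sertoli-like cells. The part of this response in the other differences by depth was not tested.

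RNA of germ cells was present in both sets and in different kinds. Of 17 haploid transcripts, 0 were at least 2-fold higher and 15 at least 2-fold lower at high depth. Among all genes 40.0% were higher and 7.88% lower. Protamine gene *Prm1* stood at 10376 CPM in low-depth and 3706 in high-depth cells, and *Smcp*, a sperm mitochondrial protein, at 1142 and 147. Together the haploid list reached at least 100 per 10,000 in 91 low-depth and 29 high-depth cells. Of the premeiotic and meiotic transcripts, 6 of 14 were at least 2-fold higher at high depth and 0 lower, a count near the 40.0% of all genes. Their sum reached at least 10 per 10,000 in 35 low-depth and 67 high-depth cells. Scrublet called 8 low-depth and 56 high-depth cells doublets, and 44 of the 67 deep cells with premeiotic RNA were among them. Over all kept cells it called 375 (6.02%).

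The genes at the ends of the depth comparison were in part genes of other cells. The 8 lowest were *Smcp*, *1700012A03Rik*, *Oaz3*, *4930571K23Rik*, *Odf1*, *Dbil5*, *Bcl2l14* and *Wbscr25*. *Smcp*, *Oaz3* and *Odf1* were on the haploid list, and all 8 were highest in germ-like cells among the other classes. The 8 highest were *5330431K02Rik*, *Col27a1*, *Esco2*, *Hells*, *Raph1*, *Hist1h2aa*, *Gm26814* and *Stra8*. *Stra8*, which marks germ cells entering meiosis, stood at 3.48 and 83.5 CPM, 22.4-fold (11.6 to 60.05). Without the cells that had premeiotic signal, met a somatic rule or had a doublet call, its log2 ratio fell from 4.49 to 0.30, while that of *Sox9* moved from 2.27 to 2.49 and that of *Kitl* from 0.95 to 1.16. *Col27a1*, a fibrillar collagen, at 0.497 and 77.6 CPM, and *5330431K02Rik*, at 0 and 66.1 CPM, were higher in Sertoli-like cells than in every other class, at 5.53-fold and 5.26-fold over the next.

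Markers of most other somatic classes were low in the selected cells, and those of contractile cells were not. Summed over its markers, the Leydig list stood at 14.4 CPM in low-depth and 27.4 in high-depth cells with 3 and 1 of its genes at 0, the endothelial list at 5.96 and 14.2, the stromal list at 66.1 and 35.8 and the immune list at 46.2 and 48.6 CPM. The contractile list stood at 981 and 787 CPM, against 29553 in contractile-like, 162 in stromal-like and 33.1 in germ-like cells, and 15 Sertoli-like cells met its rule. Its median was 4.53 per 10,000 in low-depth and 3.12 in high-depth cells and 0 in each other class but the contractile-like. The germ list stood at 15314 and 6150 CPM. The part of either list in the other results was not tested.

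Variation among Sertoli-like cells was measured after thinning, in 666 cells and 3830 genes with a mean of at least 0.1 UMIs. The variance was at least 2 times the mean in 197 genes, and the median over all genes was 1.12. The 8 most variable genes were *Prm1*, *Prm2*, *Tnp2*, *Tnp1*, *Smcp*, *Dbil5*, *Malat1* and *Acta2*, in which the values were 118, 54.9, 48.6, 46.1, 37.3, 30.5, 23.7 and 19.5. The first 6 are genes of haploid germ cells and *Acta2* is a contractile gene, so that the variation most visible was in RNA of other cells and in *Malat1*. Of the 20 most variable genes, 6 were on the haploid list.

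Among genes of the Sertoli program, *Clu*, *Ctsl* and *Defb19* varied most, with ratios of variance to mean of 12.6, 9.13 and 10.5. *Clu* had a median of 3 UMIs per 2000 in low-depth cells, with a 95th percentile of 33, and a median of 15 with a 95th percentile of 31 in high-depth cells. The low-depth cells thus held a few cells at the level of the deep ones. *Ctsl* had medians of 3 and 6.5 UMIs. *Defb19* had medians of 30 and 12 UMIs, with 5th percentiles of 9 and 3. *Gm37350* had a median of 0 at either depth, and the 10% of high-depth cells with most of it held 74.8% of its UMIs. In a tubule, *Ctsl* is known to change with the stage of the seminiferous cycle, and stages were not recorded for these cells.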

How the data were processed

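Libraries of testis cells were made with the 10x Chromium 3′ kit, version 2, and the authors deposited UMI counts per gene and cell from Cell Ranger 2.1.1 on GRCm38, with no normalization; they used Seurat 3.1 downstream. Such counts take 1 tag per molecule and were not divided by gene length. The deposited file of the Tomato-depleted library also holds cells of the other libraries, and only barcodes ending _1 were used.

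Cells with at least 200 genes and at most 10% mitochondrial UMIs were kept, with no upper gene limit. Doublets were left in. Kept Sertoli-like cells held 7735179 UMIs and the other cells 182712805. UMIs were summed per group and given as CPM with exact Poisson intervals, shares with exact Clopper-Pearson intervals, and ratios, with 0.5 added to each count, with exact conditional binomial intervals, all at 95%, covering counting error alone. For genes with 0 counts the limit is the level of 3 counts. Genes needed 20 counts in the groups compared. With 1 library per condition no test was run. A gene was counted as higher or lower past 4-fold, or 2-fold between depths. Thinning drew 2000 UMIs per cell.

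The members and lists were chosen with earlier results of these data known. Class markers were fixed before the class limits of 30 per 10,000 and 3 markers, which were set during the work. Named genes were the selecting genes, *Sox9* and *Wt1*, the 15 highest and 10 lowest against other cells and the 8 highest and 8 lowest by depth (ordered by the interval end nearest to 1, with at least 100 counts), the 10 highest over the next class, the 8 most variable, and list genes, some of which are not reported here. Gene names matched GENCODE M21 for 99.9% of 33447 genes. Tools were Python 3.11.15, numpy 2.4.6, scipy 1.17.1, scanpy 1.11.5 with Scrublet and matplotlib 3.10.9. On simulated counts the intervals held the true ratio for 96.6% of 25718 unchanged genes against other cells and 95.8% of 13455 between depths. For genes made to change the share was 91.4% to 100%. The simulated counts were Poisson, as the intervals assume, so they do not check the intervals under variation between cells. Alternatives changed the selection rule, the mitochondrial and gene limits, doublets, thinning, weighting, scaling, the count minimum and the split by depth.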

Additional observations from a re-analysis of the deposited data

Results flagged for a closer look

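Cells outside the main comparison carried the signal that selected the Sertoli-like cells. Of the 1392 barcodes of the Tomato-depleted library removed for over 10% mitochondrial UMIs, 1121 met the count rule, against 735 kept cells. They call for a closer look because the groups above do not use them. In the control library 0 of 140 removed cells met the rule, but only 4 of its kept cells did. In the cKO library 17 of 214 removed cells and 13 kept cells met it. The levels of the 1121 cells lay near those of the low-depth cells for the selecting genes, at 4944 CPM for *Cst9* and 5448 for *Cst12*. The rule used these levels, so this likeness is a description. *Sox9* stood at 58.9 CPM, *Clu* at 1996, *Kitl* at 39.0 and *Malat1* at 520 CPM. *Gdnf* had a UMI in 0.0892% of them. The haploid list reached at least 100 UMIs per 10,000 in 115 and Scrublet, which was run on kept cells, gave no call. Why so many cells passed the mitochondrial limit was not tested.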

How the results depend on the processing

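No paired analysis was possible because no result came from a test and each condition was 1 library. The number of Sertoli-like cells was 672 with a rule of at least 60 per 10,000, 342 at no more than 5% mitochondrial UMIs, 435 at no more than 3500 genes, 671 without Scrublet doublets and 1856 with no mitochondrial limit. Genes at least 4-fold higher than in other cells were 3716 in all, or 14.3% of the genes compared. They numbered 855 (5.18%) at no more than 3500 genes and 1177 (6.94%) after thinning to 2000 UMIs. By the mean over cells they numbered 1703 (6.32%), and against somatic cells only 1819 (11.1%). Genes at least 4-fold lower were 5358 in all, or 20.7%. With a rule of at least 15 per 10,000, which moves 50 cells between the groups, they numbered 2232 (8.62%). After thinning they numbered 3341 (19.7%), and against somatic cells only 2148 (13.1%). By depth, 5504 higher genes (40.0%) became 2652 (33.2%) after thinning. The 1083 lower genes (7.88%) became 513 (6.43%) after thinning, 534 (3.89%) with a split at the median UMIs and 1952 (14.2%) with a split by *Malat1*. Genes with a variance at least 2 times the mean fell from 197 (5.14%) to 62 (3.18%) after thinning to 1000 UMIs. Fewer genes were compared after thinning, and each share here is of the genes compared in its own setting. The causes of these changes were not tested.

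Among named genes past 4-fold, the direction turned for 3, given here as log2 ratios. At no more than 3500 genes *Gdnf* came to -0.88, on 2 counts. Against somatic cells only, *Kitl* came to -0.018 and *Aldh1a1* to -0.29. Of the other log2 ratios over other cells, 86 moved by less than their interval and 106 by more, and of those by depth 20 and 34. The comparisons without a mitochondrial limit, against somatic cells only, without members with premeiotic signal, a somatic rule or a doublet call and by *Malat1* were chosen after seeing the data. Depth limits the genes under about 20 counts, the Leydig-like class and everything in the control and cKO libraries.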

Other observations

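*Mki67*, a proliferation marker, had a log2 ratio of -1.05 in Sertoli-like over other cells, which came to -3.52 when members with premeiotic RNA, a somatic class rule or a doublet call were left out. That left 608 cells, 389 of low and 219 of high depth. *Wfdc8*, alone among the 8 higher genes of its cluster, stood at 1.49 CPM in low-depth and 17.6 CPM in high-depth Sertoli-like cells, whereas *Wfdc10* stood at 1945 and 1023 and *Wfdc13* at 5.47 and 0.699 CPM. *4930401G09Rik*, a lincRNA, stood at 1.99 and 20.8 CPM, and *AC151478.2*, also a lincRNA, at 55.1 and 36.0 CPM.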
